A study of Mus musculus with 2 samples.

Results

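The Hox genes encode homeodomain transcription factors and lie side by side in 4 clusters of the mouse genome. They were taken as every protein-coding gene whose GENCODE M21 symbol is Hoxa, Hoxb, Hoxc or Hoxd followed only by digits. This gave 39 genes, all present in both gene tables, out of 43346 gene identifiers, of which 21474 were protein-coding. The tissue was heart from adult mice of the C57BL/6J inbred strain, 8 weeks old, and the RNA measured was poly(A)-selected and longer than 200 nucleotides. The labels give stranded paired reads of 76 nucleotides and 1 group of 2 libraries, replicate 2 and replicate 1. Each is called a biological replicate with its own biosample record, made from littermates of mixed sex, and both point to the same donor record. With 1 group the data hold no contrast between conditions, so that levels, shares among the Hox genes and differences between these 2 libraries are what can be measured.

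Within each cluster the genes follow one another in the order of their paralog number, which is shared by the copies that arose from 1 ancestral gene. In the embryo, genes of low number are active earlier and nearer the head and genes of high number later and nearer the tail. Genes at the low-numbered end pattern the hindbrain, the pharyngeal arches and the back of the early heart field, where retinoic acid switches them on, and Polycomb proteins keep clusters silent elsewhere. In DNA binding they are helped by homeodomain proteins of the TALE class, the Pbx, Meis and Pknox factors.

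The libraries differ in ways that bear on every value below. The total was 62912053 estimated counts in replicate 2 (98.28% of them on genes), against 57464573 in replicate 1 (98.35%). Xist, the RNA of the silenced X chromosome, had 13 counts in replicate 2 and 13725 in replicate 1, while 4 Y-linked genes together had 2916 counts in replicate 2 and 0 in replicate 1, although both libraries carry the label of pooled males and females. Markers of cardiomyocytes, the contractile cells of the heart, were detected for 8 of 8 genes. Their summed TPM (a level per transcript length, scaled to the same total in each library) was 38107 and 32882 in replicates 2 and 1. In CPM (counts scaled to TMM-adjusted library size, not to length) the order was reversed, with 42131 in replicate 2 and 47872 in replicate 1. Markers of lung and airway epithelium summed to 1185 CPM in replicate 2 and 0.943 CPM in replicate 1. Red blood cell markers summed to 40022 CPM in replicate 2 and 3765 CPM in replicate 1. Each library is therefore given on its own throughout, and each p-value compares these libraries with counting error only. A difference between the libraries cannot be told apart from a difference of sex.

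Hox transcripts were rare in both libraries. The 39 genes together had 666 counts in replicate 2 (95% Poisson interval 616 to 719) and 300 counts in replicate 1 (267 to 336). Over all counts on genes this was 10.8 CPM in replicate 2 (9.97 to 11.6) and 5.31 CPM in replicate 1 (4.72 to 5.94). Their summed level was 5.51 TPM in replicate 2 and 2.65 TPM in replicate 1, or 4.08 ± 2.02 TPM (mean ± SD, n = 2). In whole tissue, fewer cells that make a transcript and less of it per cell cannot be told apart. An exact sign test on 2 values cannot go below p = 0.5, so no test was run on these sums.

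No Hox gene reached 1 TPM in either library. The highest was Hoxb2 with 0.76 TPM in replicate 2, and Hoxb4 with 0.35 TPM in replicate 1. Hoxb2, which works in the hindbrain of the embryo, had the highest mean, 0.54 TPM, and 56.5% of protein-coding genes lay above it. The median of the 39 means was 0.01 TPM, against 1.23 TPM over all protein-coding genes, of which 52% (11161 genes) reached a mean of 1 TPM. At least 3 counts in both libraries, the limit used here for detection, were reached by 13 of the 39 Hox genes (33.3%), against 70% of protein-coding genes. No count in either library was found for 16 Hox genes (41%), against 19.7% of protein-coding genes.

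The share of Hox genes detected was lowest among those of high paralog number. Of the 8 genes with paralog numbers 1 to 3, 4 were detected. Of the 15 genes numbered 4 to 8, 7 were detected. Of the 16 genes numbered 9 to 13, 2 were detected, Hoxa9 and Hoxd9, and 13 had no count in either library. Genes 1 to 3 together held 308 counts in replicate 2 and 104 in replicate 1, genes 4 to 8 held 348 and 185, and genes 9 to 13 held 10 and 11. As a share of the summed Hox TPM, genes 1 to 3 made up 45.4% in replicate 2 and 34.7% in replicate 1, and genes 4 to 8 made up 53.4% and 61.9%. Genes 9 to 13 made up 1.27% in replicate 2 and 3.4% in replicate 1. Genes 9 to 13 were the lowest class in both libraries, while the split between the first 2 classes differed between them. The classes are not even inside, since group 6 had 0.08 TPM in replicate 2 and 0.03 TPM in replicate 1. Group 9 had 0.07 and 0.06 TPM.

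**Figure D1:**
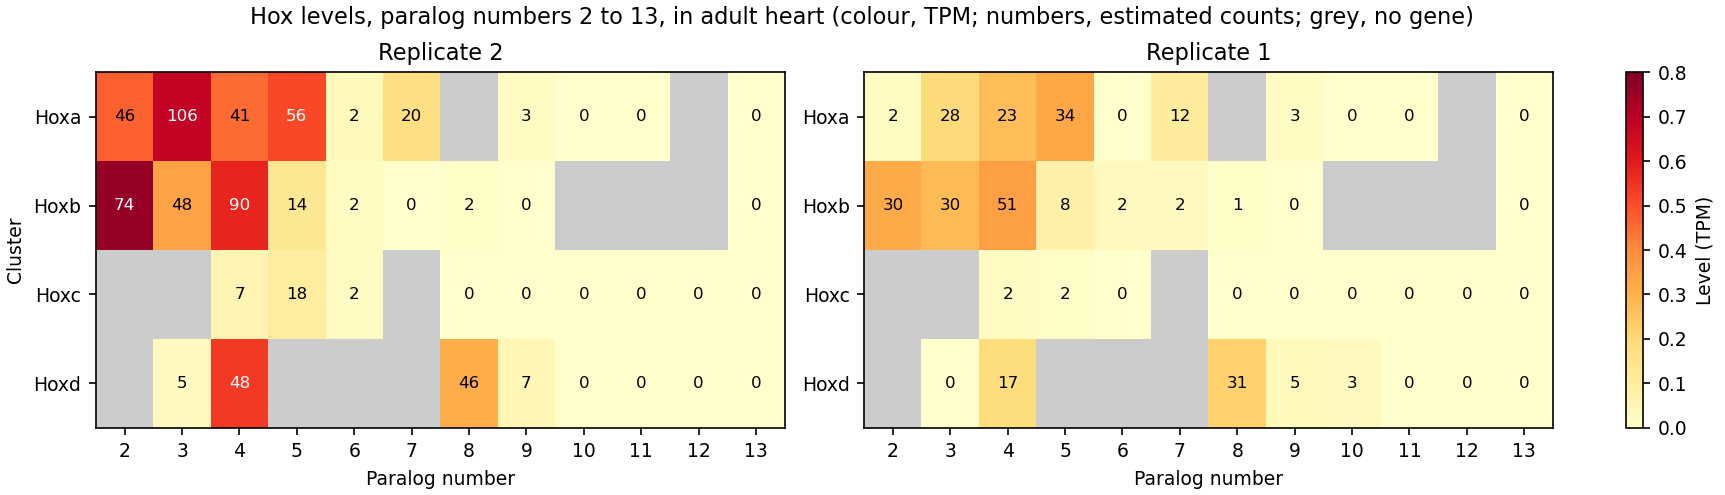
Level of each Hox gene with a paralog number of 2 to 13, by cluster (rows) and paralog number (columns), in replicate 2 (left) and replicate 1 (right), with TPM as colour, estimated counts as numbers, and grey where mice have no such gene. Counts gather at paralog numbers 2 to 5, 7 and 8, in the Hoxa, Hoxb and Hoxd clusters, and the squares from 10 to 13 hold 0 counts except Hoxd10 with 3 counts in replicate 1.

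Taken by paralog group, the sum over the clusters was highest for group 4 in both libraries, with 1.63 TPM in replicate 2 and 0.82 TPM in replicate 1. In replicate 2 group 2 followed with 1.23 TPM, against 0.34 TPM in replicate 1, where it stood below groups 3 and 5. Group 3 had 1.05 TPM in replicate 2 and 0.47 TPM in replicate 1, and group 5 had 0.74 and 0.42 TPM. Only group 4 has a gene in each of the 4 clusters below number 9, so its sum is over more genes than that of the groups beside it. Groups 7 and 8 had 0.17 and 0.32 TPM in replicate 2, and 0.14 and 0.23 TPM in replicate 1. Group 6 had 0.08 TPM in replicate 2 and 0.03 TPM in replicate 1, below both neighbouring groups in each library. Group 9 had 0.07 TPM in replicate 2 and 0.06 TPM in replicate 1.

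**Figure D2:**
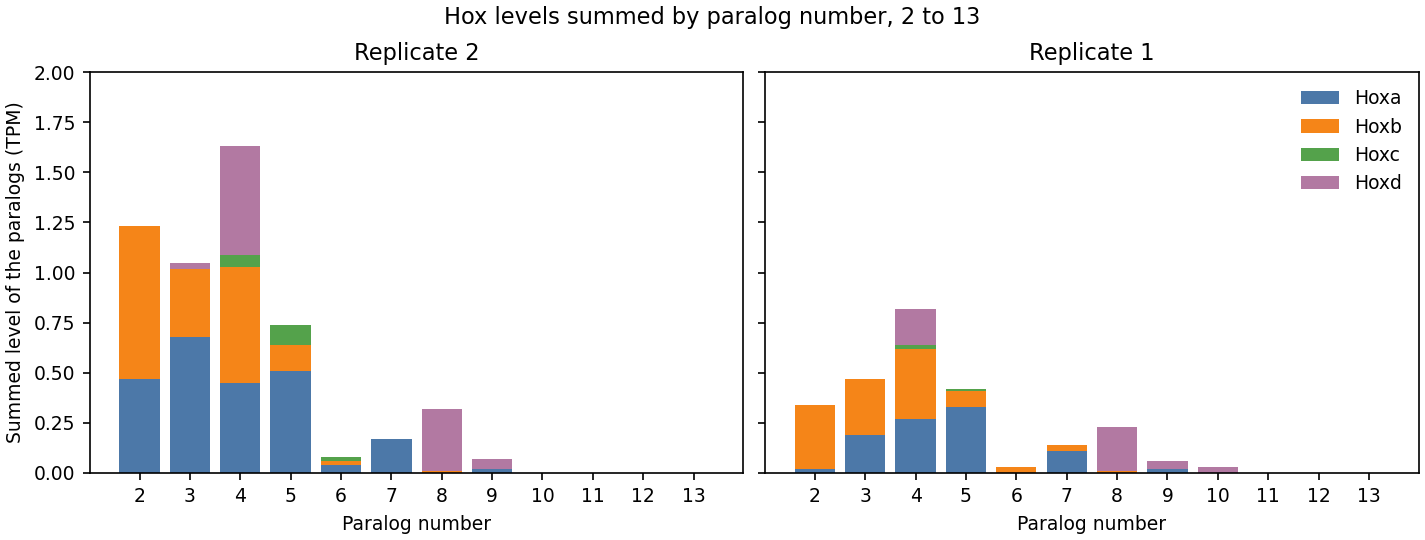
Summed TPM of the Hox genes of each paralog number from 2 to 13 in replicate 2 (left) and replicate 1 (right), with the bars stacked by cluster. Group 4 is highest in both libraries, with 1.63 TPM against 0.82 TPM, with a dip at group 6 and bars at or near 0 from group 10 on.

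The clusters were unequal. The Hoxa cluster (chromosome 6 of mm10, minus strand, 11 genes over 105 kb) held 46.5% of the Hox TPM in replicate 2 and 39.6% in replicate 1. The Hoxb cluster (chr11:96194316-96368256, plus strand, 10 genes over 174 kb) held 33.4% in replicate 2 and 41.5% in replicate 1. In counts, the 95% Clopper-Pearson interval of the Hoxa share was 41.7 to 49.4% in replicate 2 and 33.1 to 44.4% in replicate 1, and that of the Hoxb share was 30.9 to 38.3% and 35.7 to 47.1%. The intervals of the clusters overlap in replicate 1 and not in replicate 2. The Hoxd cluster (chr2:74668310-74765142, plus strand, 9 genes over 96.8 kb) held 16.9% in replicate 2 and 17.7% in replicate 1. The Hoxc cluster (chr15:102921103-103036852, plus strand, 9 genes over 116 kb) held 3.27% in replicate 2 and 1.13% in replicate 1, from 27 and 4 counts. No Hoxc gene was detected in both libraries, against 6 of 11 Hoxa, 4 of 10 Hoxb and 3 of 9 Hoxd genes. As a share of counts the Hoxc cluster had a 95% Clopper-Pearson interval of 2.69 to 5.84% in replicate 2 and 0.364 to 3.38% in replicate 1.

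At least 20 counts over both libraries, the minimum for a test, were reached by 13 Hox genes, 6 of Hoxa, 4 of Hoxb, 1 of Hoxc and 2 of Hoxd. A further 10 had fewer counts, and 16 had none. Hoxa2 and Hoxc5 passed this minimum through replicate 2, since each had 2 counts in replicate 1. Hoxa9 and Hoxd9 were detected but had too few counts for a test. Estimated counts, scaled for library size by TMM (the trimmed mean of log ratios over genes), were compared by an exact binomial test with Benjamini-Hochberg adjustment at 0.05 over the 16145 genes with at least 20 counts, and a ratio of at least 2 was needed for a call. The call "higher in replicate 2" fell on 8.21% of these genes, and the call "lower" on 3.57%. Among the 4013 genes with under 200 counts, where all 13 Hox genes lie, these calls fell on 21.8% and 9.69%.

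Hoxb1, which marks the back of the early heart field in the embryo, and Hoxd1 had 0 counts in both libraries. With 0 counts the Poisson interval runs up to 3.69 counts in each library. The limit of 3 counts used for detection, which lies below this, is 0.0464 TMM-scaled CPM in replicate 2 and 0.0555 in replicate 1. All intervals cover counting error only.

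Paralog number 2 gave the widest gap between the libraries. Hoxa2 (chr6:52162417-52164831), which sets the identity of the second pharyngeal arch, had 46 counts in replicate 2 and 2 counts in replicate 1, or 0.47 and 0.02 TPM. It was called higher in replicate 2 by 19.3-fold (5.04 to 164, adjusted p = 1.11e-09, exact binomial test). The interval spans a wide range because replicate 1 gave so few counts. Hoxb2 (chr11:96350525-96354012) had 74 counts in replicate 2 and 30 in replicate 1, or 0.76 and 0.32 TPM, and was called 2.07-fold higher in replicate 2 (1.33 to 3.27, adjusted p = 0.00132, exact binomial test). Hoxb2 lies just past the limit of 2, and centring the ratios within bins of GC content took it below that limit, to 0.82 on the log2 scale.

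Paralog number 3 held the Hox gene with the most counts in replicate 2. Hoxa3 (chr6:52169062-52213336), needed for the thymus and parathyroid glands, had 106 counts in replicate 2 and 28 in replicate 1, or 0.68 and 0.19 TPM. It was called 3.17-fold higher in replicate 2 (2.07 to 5.0, adjusted p = 1.35e-08, exact binomial test). Hoxa2 and Hoxa3 are neighbours in the cluster, and Hoxa4, the next gene on the side of Hoxa3, was not called. Hoxb3 (chr11:96323326-96347930) had 48 counts in replicate 2 and 30 in replicate 1, or 0.34 and 0.28 TPM, a ratio of 1.34 (0.832 to 2.19). Hoxd3 had 5 counts in replicate 2 and 0 in replicate 1.

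All 3 tested genes of paralog number 4 had counts in both libraries. Hoxb4 (chr11:96318267-96321638), known for expanding blood stem cells when supplied in excess, had 90 counts in replicate 2 and 51 in replicate 1, or 0.58 and 0.35 TPM. Its interval of 1.04 to 2.13 lay above 1 (adjusted p = 0.0445, exact binomial test), but its ratio of 1.48 was under the limit of 2. Hoxa4 (chr6:52189671-52191753) had 41 counts in replicate 2 and 23 in replicate 1, or 0.45 and 0.27 TPM, a ratio of 1.49 (0.875 to 2.61). Hoxd4 (chr2:74711929-74729160), which helps to shape the neck vertebrae, had 48 counts in replicate 2 and 17 in replicate 1, or 0.54 and 0.18 TPM, and was called 2.36-fold higher in replicate 2 (1.34 to 4.39, adjusted p = 0.00359, exact binomial test). That call rests on how reads were divided, since 43.8% of the positions where a 76-base stretch of Hoxd4 can start also occur in Hoxd3 or in Gm28230, an overlapping protein-coding gene. Gm28230 ran the other way, with 3.91 counts in replicate 2 and 15.39 in replicate 1. Added together, Hoxd3, Hoxd4 and Gm28230 reached 57 counts in replicate 2 and 32 in replicate 1, a ratio of 1.49 (0.951 to 2.38, adjusted p = 0.116, exact binomial test) that was not called. Hoxc4 had 7 counts in replicate 2 and 2 in replicate 1.

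Among paralog numbers 5 to 8, 1 gene was called. Hoxa5 (chr6:52201754-52204587), which the mouse embryo needs for the airways and lungs, had 56 counts in replicate 2 and 34 in replicate 1, or 0.51 and 0.33 TPM, a ratio of 1.38 (0.885 to 2.18). Hoxb5 (chr11:96303336-96306121) had 14 counts in replicate 2 and 8 in replicate 1, or 0.13 and 0.08 TPM, a ratio of 1.47 (0.574 to 4.03). Neither was called. Hoxc5 (chr15:102967443-103017429) had 18 counts in replicate 2 and 2 in replicate 1, or 0.10 and 0.01 TPM, and was called 7.54-fold higher in replicate 2 (1.80 to 67.0, adjusted p = 0.00282, exact binomial test). Hoxa7 (chr6:52214491-52221854) had 20 counts in replicate 2 and 12 in replicate 1, or 0.17 and 0.11 TPM, a ratio of 1.40 (0.650 to 3.13). Hoxd8 (chr2:74704615-74707933) had 46 counts in replicate 2 and 31 in replicate 1, or 0.31 and 0.22 TPM, and its ratio of 1.24 (0.771 to 2.03) was the lowest of the 13. Hoxd8 carried nearly all of paralog group 8, since Hoxc8 had no count and Hoxb8 had 2 in replicate 2 and 1 in replicate 1.

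In all, 5 of the 13 tested Hox genes were called higher in replicate 2 (Hoxa2, Hoxa3, Hoxb2, Hoxc5 and Hoxd4), 0 were called lower, and 8 were not called. The shares of all tested genes called higher and lower were 8.21% and 3.57%. Among genes with under 200 counts, where the 13 lie, they were 21.8% and 9.69%. The ratio of each of the 13 was above 1, but the intervals of 7 include 1, and Hoxa2 and Hoxc5 entered the test through the library in which they are high, so these counts describe the genes that passed the minimum and not all 39. With no minimum, 19 of the 23 Hox genes with any count had a ratio above 1 and 4 did not. The median log2 ratio was -0.015 over all 16145 genes and 0.163 among those with under 200 counts. With no limit on the ratio, where 32.9% of all genes were called higher and 34.9% lower, Hoxb4 joined the 5 and 0 were lower. With the minimum in place, all 13 stayed above 1 under DESeq2 size factors, scaling by total counts and centring by GC content. Summed over the 39 genes the gap is smaller where TPM is rescaled to nuclear protein-coding genes, whose part of all TPM was 50.7% in replicate 2, against 33.8% in replicate 1. The Hox sum was then 10.9 TPM in replicate 2 and 7.85 TPM in replicate 1.

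**Figure D3:**
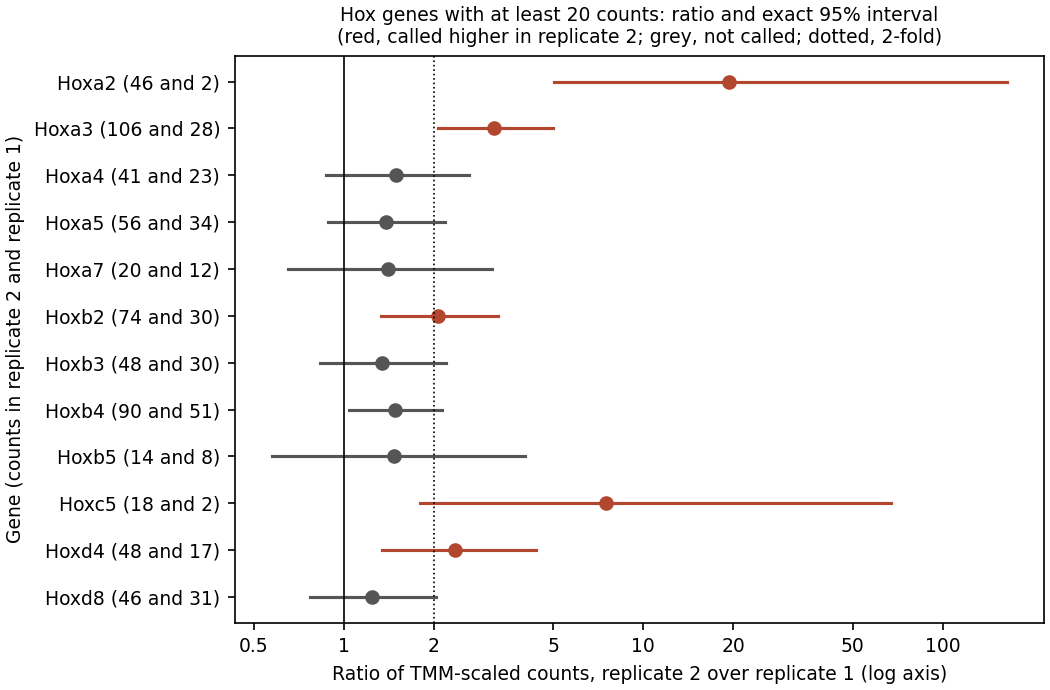
Ratio of TMM-scaled counts, replicate 2 over replicate 1, on a log axis for 12 of the 13 Hox genes with at least 20 counts, with exact 95% intervals and the counts of both libraries beside each name. All 12 points lie above 1, the 5 called genes are red, and Hoxa2 and Hoxc5, with 2 counts each in replicate 1, have the widest intervals.

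The genes under the minimum add little. Hoxd9 was measured with 7 counts in replicate 2 and 5 in replicate 1, and Hoxa9, which acts in blood progenitors, with 3 in each. Hoxb6 had 2 counts in each library, Hoxa6 and Hoxc6 had 2 in replicate 2 and 0 in replicate 1, and Hoxb7 had 0 in replicate 2 and 2 in replicate 1. Hoxd10 was the only gene numbered 10 or more with any count, 0 in replicate 2 and 3 in replicate 1. The 16 genes without a count were Hoxa10, Hoxa11, Hoxa13, Hoxb1, Hoxb9, Hoxb13, Hoxc8 to Hoxc13, Hoxd1 and Hoxd11 to Hoxd13. They include the genes that shape the limb, the digits and the urogenital tract, such as Hoxa11, Hoxa13 and Hoxd13. They also include Hoxb13, known as a partner of Meis1 in holding back division of mouse heart muscle cells. Meis1 itself had 9.59 TPM in replicate 2 and 7.89 TPM in replicate 1.

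The annotated transcript behind each gene was mostly the same in both libraries. Of the 13 tested Hox genes, 9 have more than 1 annotated transcript, and in 9 of 9 the same transcript led by TPM and by counts in both, and in 8 of 9 by posterior mean TPM. Hoxa3-201 held 98.5% of the TPM of Hoxa3 in replicate 2 and 100% in replicate 1, and Hoxb2-201 held 96% and 93.8% of that of Hoxb2. Hoxb3 was divided, with Hoxb3-201 at 64.7% in replicate 2 and 50% in replicate 1. Hoxd8-201 held 75% in replicate 2 and 86.4% in replicate 1. For Hoxa7 the leading form was Hoxa7-205, a transcript of the nonsense-mediated decay class, which is not expected to give full-length protein, with 82.4% in replicate 2 and 72.7% in replicate 1, from 16.79 and 8.81 counts. With so few counts these shares have wide error, and reads that fit several transcripts were divided by the authors' estimate.

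Between and around the Hox genes lie 53 other annotated genes within 20 kb of the cluster ends, of which 52 are in the tables. None reached a mean of 1 TPM, 44 had no count, and 4 had at least 3 counts in both libraries. The most abundant was Hoxb3os (chr11:96343072-96354691), an antisense gene across Hoxb2 and the end of Hoxb3, with 55 counts in replicate 2 and 42 in replicate 1, or 0.41 and 0.32 TPM. The libraries are labelled as stranded, but whether strand was used in counting is not stated in the labels or headers, so reads of Hoxb2 or Hoxb3 and of Hoxb3os may not be fully separated. Hotairm1, an antisense gene of the Hoxa cluster, was found with 5 counts in replicate 2 and 3 in replicate 1, and Hoxaas2 with 4 and 3. Hotair, a long RNA of the Hoxc cluster, and Hottip, one beyond Hoxa13, had 0 in both.

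The clusters also hold microRNA genes, and the 6 that are in the tables had 0 counts in both libraries, which were made from RNA longer than 200 nucleotides and so do not measure mature microRNAs. They are shown because 3 clusters carry a member of the miR-196 family, whose known targets include Hox genes. The mature forms fall into families with a shared seed (bases 2 to 8 from the 5′ end, in capitals), from RefSeq on GRCm38.p6. miR-10a lies at chr11:96317186-96317208 just before Hoxb4 and miR-10b at chr2:74726074-74726096 within Hoxd4. miR-196a is encoded at chr11:96265187-96265208 and chr15:102973365-102973386 and miR-196b at chr6:52230129-52230150 on the minus strand.
mmu-miR-10a-5p: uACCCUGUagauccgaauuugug
mmu-miR-10b-5p: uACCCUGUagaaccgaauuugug
mmu-miR-196a-5p: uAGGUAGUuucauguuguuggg
mmu-miR-196b-5p: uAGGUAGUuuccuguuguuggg

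Promoter windows of 300 bases, from 250 before to 50 after a start, were found in RefSeq (GRCm38.p6) for 22 of the 39 Hox genes, 24 windows in all. Their median GC content was 57.7%, against 52.7% over all 32851 windows of the table, and their median number of CG pairs was 14.5, against 7. The 7 windows of Hox genes with at least 20 counts had a median GC content of 55.7% and 9 CG pairs, and the 10 windows of Hox genes without a count had 58.3% and 18 CG pairs. The groups are small, and the difference was not tested. Motifs were searched on both strands, and matches of different motifs may overlap. The half-site of retinoid receptors (AGGTCA) was in 7 of 24 Hox windows (29.2%), against 16.3% of all windows, and the joint Pbx and Hox site (TGATNNAT) was in 4 (16.7%), against 8.85%. The Meis core (TGACAG) was in 2 (8.33%), against 19.2%, the TATA box (TATAAA) in 4 (16.7%), against 13.6%, and the GC box (GGGCGG) in 10 (41.7%), against 35.7%. A match is a run of letters, not a shown binding site.

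Shown here, 5′ to 3′, with matches to these motifs in capitals, are the windows of the gene with the most counts in replicate 1 (Hoxb4), of those with the widest gap (Hoxa2) and the call that rests on shared reads (Hoxd4), and of a silent gene of the Hoxb cluster (Hoxb1). Hoxb4 (chr11:96318017-96318316, plus strand) and Hoxd4 (chr2:74721728-74722027, plus strand) hold a retinoid half-site read on the other strand, and Hoxd4 also holds a TATA box read on the other strand. The Hoxd4 window lies inside the annotated gene, at a RefSeq start downstream of the gene's annotated start. Hoxa2 (chr6:52164782-52165081, minus strand) holds a Meis core and a Pbx and Hox site, and Hoxb1 (chr11:96365508-96365807, plus strand) a Pbx and Hox site.
Hoxb4: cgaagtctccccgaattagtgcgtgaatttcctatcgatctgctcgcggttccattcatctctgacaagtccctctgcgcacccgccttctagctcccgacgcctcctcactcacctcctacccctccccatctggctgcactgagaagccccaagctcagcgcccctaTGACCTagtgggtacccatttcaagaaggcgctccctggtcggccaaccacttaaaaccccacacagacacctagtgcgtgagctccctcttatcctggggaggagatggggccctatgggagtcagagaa
Hoxa2: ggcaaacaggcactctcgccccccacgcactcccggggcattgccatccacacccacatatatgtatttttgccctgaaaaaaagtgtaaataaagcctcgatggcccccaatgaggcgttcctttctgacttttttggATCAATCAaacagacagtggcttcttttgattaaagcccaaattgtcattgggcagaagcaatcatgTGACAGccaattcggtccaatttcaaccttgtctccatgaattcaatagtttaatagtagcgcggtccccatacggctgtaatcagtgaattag
Hoxd4: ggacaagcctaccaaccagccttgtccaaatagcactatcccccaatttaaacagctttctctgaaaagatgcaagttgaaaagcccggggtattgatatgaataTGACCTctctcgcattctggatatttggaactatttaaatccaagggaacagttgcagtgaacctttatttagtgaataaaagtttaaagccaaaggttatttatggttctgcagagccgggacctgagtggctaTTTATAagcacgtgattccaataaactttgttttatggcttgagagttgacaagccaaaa
Hoxb1: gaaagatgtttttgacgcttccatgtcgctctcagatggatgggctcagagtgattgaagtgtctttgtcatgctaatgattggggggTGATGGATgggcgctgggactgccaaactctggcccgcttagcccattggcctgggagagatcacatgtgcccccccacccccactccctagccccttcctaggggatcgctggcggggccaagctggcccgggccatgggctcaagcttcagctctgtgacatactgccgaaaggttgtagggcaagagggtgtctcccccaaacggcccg

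The partners of Hox proteins were present where the Hox genes themselves were rare. The list held 11 genes of the TALE class, not all of it: the Meis, Pbx and Pknox genes, and also Tgif1 and Tgif2. All 11 were detected and 9 reached a mean of 1 TPM. Their sum was 69.5 TPM in replicate 2 and 62.3 TPM in replicate 1, with a median of 4.71 TPM. Pbx2 had 11.67 TPM in replicate 2 and 9.84 TPM in replicate 1, Meis1 had 9.59 and 7.89 TPM, and Meis2 had 8.93 and 7.82 TPM. None of the 11 was called in either direction, and the median of their log2 ratios, replicate 2 over replicate 1, was -0.19. Pbx4, with 14 counts in replicate 2 and 7 in replicate 1, was the one with the fewest.

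**Figure D4:**
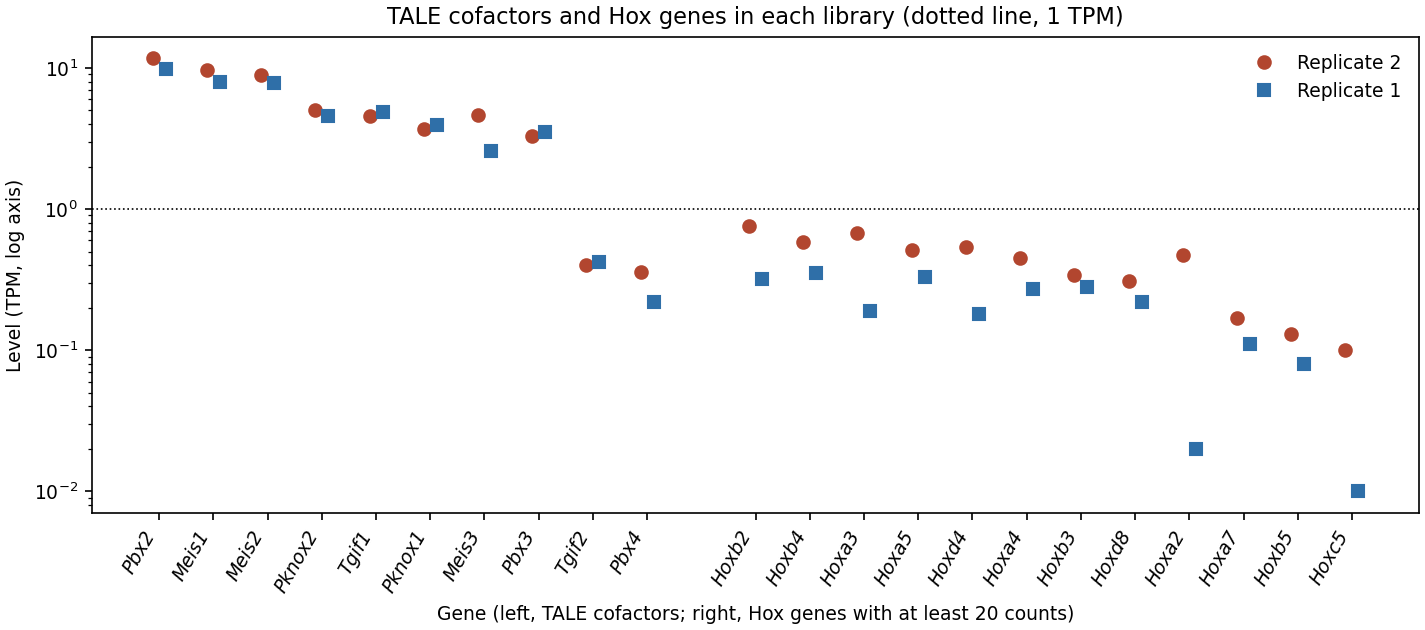
Level of 10 listed TALE genes (left) and of 12 Hox genes with at least 20 counts (right), in TPM on a log axis, with replicate 2 as circles and replicate 1 as squares. TALE genes such as Pbx2 (11.67 TPM in replicate 2 and 9.84 TPM in replicate 1) lie mostly above the dotted line at 1 TPM, and the Hox genes all lie below it.

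Retinoic acid, which switches on low-numbered Hox genes in the embryo, is made by aldehyde dehydrogenases, broken down by Cyp26 enzymes and sensed by the receptors Rar and Rxr. Of 18 genes of this pathway 15 were tested, and 2 were called higher in replicate 2, 1 lower and 12 in neither direction. Over all tested genes 8.21% were called higher and 3.57% lower. The median log2 ratio of the 15 was -0.09, and a link of these genes to the Hox levels was not tested. Aldh1a1, which makes retinoic acid, had 1476 counts in replicate 2 and 576 in replicate 1 (2.15-fold higher, 1.95 to 2.37), and the receptor Rara had 981 and 396 counts (2.07-fold higher, 1.84 to 2.34). Cyp26b1, which breaks it down, was at 261 counts in replicate 2 and 2651 in replicate 1, 12.1-fold lower in replicate 2. Aldh1a2, the main enzyme that makes retinoic acid in the embryonic heart, was not called, with 412 counts in replicate 2 and 388 in replicate 1. The most abundant were Dhrs3 (59.83 TPM in replicate 2 and 50.33 in replicate 1), Rxrg (43.07 and 43.55) and Rxra (27.83 and 14.65). Crabp2 and Cyp26c1 had 0 counts in replicate 1, with 1 and 2 counts in replicate 2.

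The chromatin proteins that hold Hox clusters silent or active were expressed in both libraries. Of 26 Polycomb genes 25 reached a mean of 1 TPM, with a median of 5.64 TPM, led by the histone-binding protein Rbbp7 (43.04 TPM in replicate 2, 53.59 TPM in replicate 1). Pcgf2 was the only one called, with 9.43 TPM in replicate 2 and 3.33 TPM in replicate 1 (2.12-fold higher, 1.84 to 2.44), and the 25 others were not called. Ezh1 stood at 3118 counts in replicate 2 and 2495 in replicate 1, and Ezh2, the other histone methyltransferase of the complex, at 152 and 199. The 12 trithorax-group and histone demethylase genes had a median of 7.33 TPM, and 0 were called. Of 8 other regulators 4 were tested and 0 called, and the caudal genes Cdx2 and Cdx4 had 0 counts in both libraries.

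The relatives of the Hox genes were at or near 0. Of the 8 ParaHox and Evx genes, homeobox genes related to the clusters, 7 had no count in either library, and Cdx1 had 0 counts in replicate 2 and 2 in replicate 1. Several transcription factors with known roles in the heart were far more abundant. Gata4 had 57.74 TPM in replicate 2 and 54.57 TPM in replicate 1, Nkx2-5 had 53.72 and 25.08 TPM, and Tbx20 had 19.51 and 20.98 TPM. Others were as low as Hox genes, such as Gata5 (0.57 and 0.38 TPM) and Tbx1 (0.65 and 0.31 TPM). The median of the mean levels was 6.01 TPM for the GATA, Nkx and Hand genes and 0.16 TPM for the T-box genes. Of 7 GATA, Nkx and Hand genes 5 were tested and 0 called. Hand1 was listed with 0 counts in replicate 2 and 1 in replicate 1, and Nkx2-6 with 0 in both. Of 17 T-box genes 12 were tested, 4 were called higher in replicate 2 and 0 lower, against 8.21% and 3.57% of all tested genes. They were Tbx4, Tbx21, Tbx15 and Eomes. Tbx4 had 54 counts in replicate 2 and 5 in replicate 1, Tbx21 36 and 8, Tbx15 32 and 13, and Eomes 22 and 0. Against an assumed floor of 3 counts in replicate 1, Eomes was 6.14-fold higher in replicate 2. The lower limit of its exact interval was 4.59-fold. These 4 are of low level, with means of 0.065 to 0.16 TPM, and Eomes passed the minimum only through replicate 2. All 4 had under 200 counts, a class in which 21.8% of genes were called higher and 9.69% lower.

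Markers of several other cell types also differed between the libraries. For scale, 8.21% of all tested genes were called higher and 3.57% lower. Among tested genes with under 200 counts these shares were 21.8% and 9.69%. All 10 lung and airway markers were called higher in replicate 2. Of them 5, Nkx2-1, Sftpa1, Sftpb, Sftpd and Scgb3a2, had 0 counts in replicate 1 and passed the minimum only through replicate 2. Scgb1a1, a secretory protein of airway cells, had 28741 counts in replicate 2 and 3 in replicate 1. All 5 red blood cell genes were also higher in replicate 2, as were 5 of 6 adipocyte genes, all but Cidea (442 CPM in sum in replicate 2 and 147 CPM in replicate 1). The immune genes called higher were 4 of 8, among them Cd74, Cd79a and Cd3e (391 CPM in sum over the 8 in replicate 2 and 236 CPM in replicate 1). Myl1 and Tnnt3 of 6 tested skeletal muscle genes and Cnn1 of 6 smooth muscle and pericyte genes were also called higher. Among 8 fibroblast genes 0 were called higher and Lum was lower, with 3104 counts in replicate 2 and 6621 in replicate 1. Among 6 neuronal genes 0 were called higher and Snap25 was lower, with 63 and 114 counts. No gene was called among 8 cardiomyocyte, 7 endothelial or 5 mesothelial markers, and no kidney gene had enough counts for a test. The part of these cells in the Hox levels was not tested.

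**Figure D5:**
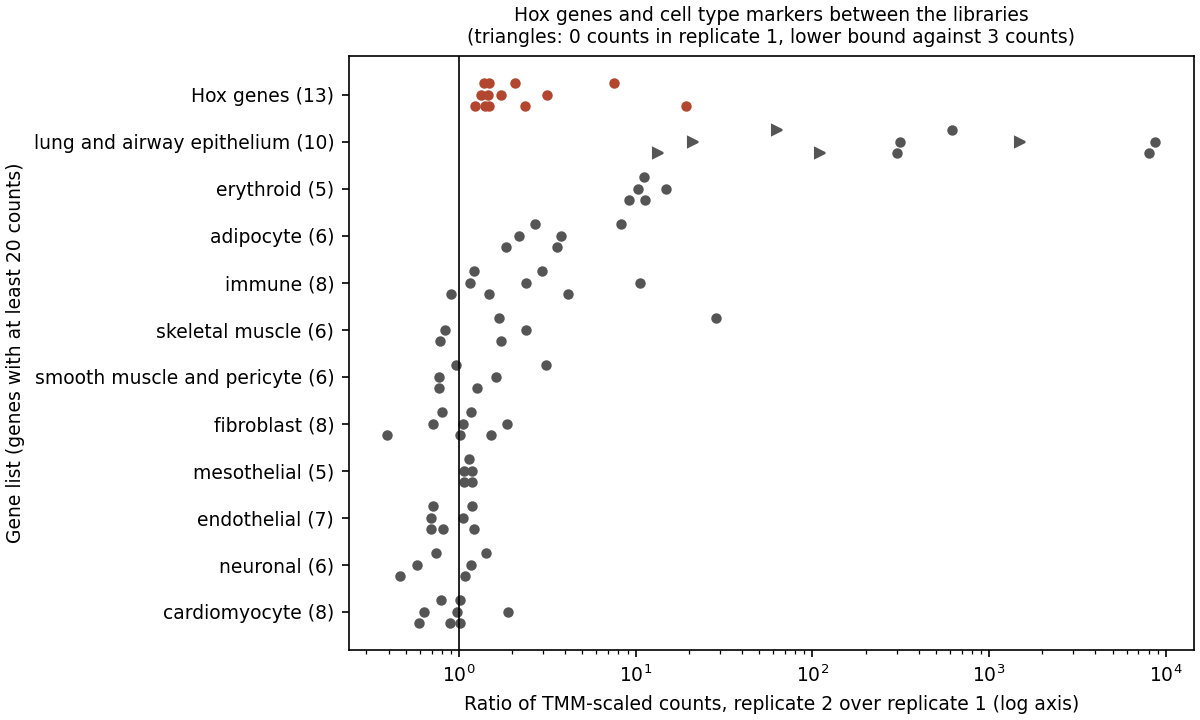
Ratio of TMM-scaled counts, replicate 2 over replicate 1, on a log axis for the Hox genes (top) and for the markers of each cell type with at least 20 counts. Triangles mark genes with 0 counts in replicate 1, whose ratios have no upper limit. Lung and airway, red blood cell and most adipocyte markers lie to the right. The 13 Hox genes lie above 1, but 8 of them were not called, with ratios of 1.24 to 1.73. Cardiomyocyte markers run from 0.597 to 1.9 and endothelial markers from 0.692 to 1.22.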

How the data were processed

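The data are 2 libraries of poly(A) RNA from adult mouse heart, forming 1 group. The authors deposited gene and transcript tables on mm10 with GENCODE M4 gene models, per the notes beside the tables. No aligner or quantifier is named in the labels or headers. Expected counts, as deposited, are the authors' estimates of fragments per gene or transcript, and were rounded to whole numbers for tests. The deposited TPM and FPKM values divide counts by effective length and scale them by library, per the file headers, and each has a posterior mean form. The posterior standard deviations of the counts and the lengths, other columns that the authors deposited, were read as scores. The deposited mm9 contigs and junctions were not used here. A few genes of the lists are left out of the text and plots.

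Symbols, coordinates and biotypes came from GENCODE M21, matched by identifier for 42462 of 43346 genes (98%), with the version suffix removed. With it, 31 of the 39 Hox genes matched. A further 26248 numbered entries held no counts, and 97 spike-in and phiX entries held 1.724% of counts in replicate 2 and 1.651% in replicate 1. These stayed out of tests and library sizes. TMM factors (1.04 in replicate 2 and 0.957 in replicate 1) came from edgeR 4.0.16 and size factors from DESeq2 1.42.0 in R 4.3.3. The library test is a two-sided exact binomial test, 2 times the smaller tail, at a false discovery rate of 0.05 with a ratio of at least 2. It has no replicate check, since 1 library against 1 leaves no residual degrees of freedom. It was run on simulated counts that held counting error only, as the test assumes. That run cannot show how the test behaves with variation between libraries. Log2 ratios have a prior count of 0.5. The labels call the libraries biological replicates, and their Xist and Y-linked counts show that they do not hold the same mix of sexes. Ratios between them are therefore confounded with sex, and the spread may also be partly technical. Intervals are Poisson for counts and Clopper-Pearson for shares, at 95%.

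With these exceptions, Hox genes, tested ones with values in each library, were named by rule, with up to 4 members of highest level of each other list, called members and members at 0. Aldh1a2, Ezh1, Ezh2, Pbx4, Gm28230, Hotair, Hottip and the printed promoters were chosen after their values were seen. Members, lists and tests were chosen with earlier results of these data known. The other software was matplotlib 3.10.9, scipy 1.17.1, pandas 2.3.3 and numpy 2.4.6 in Python 3.11.15.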

Additional observations from a re-analysis of the deposited data

How the results depend on the processing

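The 13 Hox genes detected in both libraries were 10 to 18 under other count minimums, and 17 in replicate 2 alone and 14 in replicate 1 alone. The 0 genes with a mean of 1 TPM became 1 at a limit of 0.5 TPM and 2 with TPM rescaled over nuclear protein-coding genes, where the summed level was 9.36 TPM in place of 4.08. With posterior mean TPM, which gives genes without reads a small level, the Hoxc cluster held 6.57% of the Hox sum, the Hoxd cluster 17.9%, paralogs 4 to 8 51.6% and paralogs 9 to 13 10.9%. The 5 genes called higher in replicate 2 were 3 with a minimum of 50 counts, since Hoxa2 and Hoxc5 were then not tested. Hoxb4 was called (log2 ratio 0.56) with no fold limit, Hoxb2 was not called after centring by GC content (0.82), and Hoxd4 was not called as a unit with Hoxd3 and Gm28230 (0.57), an alternative chosen after seeing the data. No Hox gene was called lower under any of these settings, while 34.9% of all genes were lower and 32.9% higher with no fold limit. Over all genes, scaling by total counts moved the median log2 ratio to 0.11 and gave 1602 higher and 415 lower calls, centring by GC content 1156 and 329, and the scaling used 1325 and 576. The median level of the listed TALE genes was 4.97 with posterior mean TPM, against 4.71. Leaving out a library leaves no ratio between libraries. No paired analysis was possible because there is 1 group. Depth limits single genes: 2 counts in a library have a 95% Poisson interval of 0.242 to 7.22.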
